A study of Mus musculus with 12 samples.

Results

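The dual-specificity MAP kinase phosphatases were examined in the transcriptome of MIN6 cells, an insulin-secreting line derived from a mouse insulinoma. They were taken as the 10 rows of the deposited gene tables named Dusp1, Dusp2, Dusp4, Dusp5, Dusp6, Dusp7, Dusp8, Dusp10, Dusp14 and Dusp16, out of 54022 genes in all. Cells were given vehicle or 100 nM TMAO (trimethylamine N-oxide, a metabolite made from microbial trimethylamine) for 18 h and then kept in low (2.8 mM) or high (16.8 mM) glucose. Each of the 4 conditions had 3 biological replicates of this 1 cell line, and the duration of the glucose stimulation was not given in the sources used here. Of the 10 genes, 6 had higher transcript levels in high glucose with either treatment, namely Dusp1, Dusp4, Dusp5, Dusp6, Dusp8 and Dusp10. None passed the test for TMAO.

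These phosphatases remove phosphate from both the tyrosine and the threonine of the activation loop of MAP kinases and so end their activity. Many are themselves induced by the kinases they switch off, and form a negative feedback. In β cells, glucose metabolism raises calcium, which activates the kinase ERK, and ERK in turn drives a set of fast-responding genes. The family is usually ordered by location and substrate: Dusp1, Dusp2, Dusp4 and Dusp5 encode inducible nuclear enzymes, Dusp6 and Dusp7 encode cytoplasmic enzymes for ERK, and Dusp8, Dusp10 and Dusp16 encode enzymes that act mainly on JNK and p38. Dusp14 encodes a small atypical member without the kinase-binding domain.

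The 12 libraries held from 16793162 to 22340542 counted fragments, and 16222 genes passed the filter on low counts. Of the 10 phosphatase genes, 9 were tested and Dusp2 was not. The β-cell list (10 genes) summed to between 39852 and 47337 FPKM per library, where FPKM is the fragment count divided by gene length and library size. Of the α-cell list (4 genes), Gcg and Ttr made nearly all of a sum of 767 to 911 FPKM. The duct list (3 genes) rested on Spp1, at 34.1 to 42.1 FPKM, with Krt19 and Sox9 at 0, and the leukocyte list (3 genes) on Cd68, at 2.88 to 4.84 FPKM, with Ptprc and Adgre1 at 0. With vehicle, these 4 sums did not overlap between low and high glucose: 40898 to 44426 against 44591 to 46167 FPKM for the β-cell list, 791 to 846 against 853 to 911 FPKM for the α-cell list, 35.3 to 37.8 against 39.2 to 42.1 FPKM for Spp1, and 2.88 to 3.62 against 4.33 to 4.84 FPKM for Cd68. With TMAO the α-cell list (767 to 861 against 876 to 902 FPKM) and Cd68 (3.87 to 4.10 against 4.12 to 4.30 FPKM) were again apart, while the β-cell list (39852 to 45549 against 44245 to 47337 FPKM) and Spp1 (34.1 to 40.5 against 38.2 to 41.8 FPKM) overlapped. Their part in the results was not tested. The delta-cell, PP-cell, acinar, stromal and endothelial lists summed to at most 2.11, 0.119, 1.49, 0.534 and 0.131 FPKM. In such bulk RNA, fewer cells of a kind and less RNA per cell cannot be told apart.

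The 10 genes lay on 10 different chromosomes (mm10). The RefSeq promoter set on GRCm38.p6 held windows of 250 bases before and 50 bases after the start site for 9 of them, all but Dusp4. The windows were searched on both strands for the cAMP response element CRE (TGACGTCA), its short form TGACG, the AP-1 site (TGANTCA), the SP1 box (GGGCGG), the EGR box (GCGNGGGCG), the TATA box (TATAAA) and the CArG box of serum response factor. The stretches before the start of the 5 genes that rose in high glucose and have a window are shown, because these genes moved together. They hold no exon of a protein-coding transcript, and capitals mark a CRE, a short CRE or a CArG box.
Dusp1, chr17:26508520-26508722, minus strand: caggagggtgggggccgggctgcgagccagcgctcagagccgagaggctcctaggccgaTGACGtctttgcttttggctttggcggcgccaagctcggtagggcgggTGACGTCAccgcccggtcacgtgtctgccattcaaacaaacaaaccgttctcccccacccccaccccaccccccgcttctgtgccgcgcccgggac
Dusp5, chr19:53528895-53529108, plus strand: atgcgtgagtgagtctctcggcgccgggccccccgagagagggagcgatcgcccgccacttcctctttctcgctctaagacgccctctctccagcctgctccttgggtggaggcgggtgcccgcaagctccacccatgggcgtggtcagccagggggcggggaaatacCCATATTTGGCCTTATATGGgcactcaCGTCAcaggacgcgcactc
Dusp6, chr10:99262981-99263230, plus strand: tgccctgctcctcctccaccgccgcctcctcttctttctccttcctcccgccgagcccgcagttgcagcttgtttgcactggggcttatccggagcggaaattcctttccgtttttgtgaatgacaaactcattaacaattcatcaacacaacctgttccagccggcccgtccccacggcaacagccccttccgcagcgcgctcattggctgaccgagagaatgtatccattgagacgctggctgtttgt
Dusp8, chr7:142095285-142095534, minus strand: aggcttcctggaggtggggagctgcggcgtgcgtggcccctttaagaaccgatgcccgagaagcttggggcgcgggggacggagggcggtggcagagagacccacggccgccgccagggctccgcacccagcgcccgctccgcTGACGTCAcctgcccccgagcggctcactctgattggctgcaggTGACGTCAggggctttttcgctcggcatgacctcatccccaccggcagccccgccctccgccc
Dusp10, chr1:184034131-184034380, plus strand: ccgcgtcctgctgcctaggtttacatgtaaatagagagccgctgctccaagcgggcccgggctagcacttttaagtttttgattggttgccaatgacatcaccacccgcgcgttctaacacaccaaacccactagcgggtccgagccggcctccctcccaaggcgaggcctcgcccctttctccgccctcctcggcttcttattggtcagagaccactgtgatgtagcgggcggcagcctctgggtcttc

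The windows differed in what they held. A full CRE was found in 2 of the 9 windows, those of Dusp1 and Dusp8, and in 1.79% of all 32851 windows. Dusp1 had a single one, starting at position -143 from the RefSeq start site, and a separate short CRE at -191. Dusp8 had a pair, starting at -107 and -63, and 0.0396% of all windows held 2 or more. The Dusp5 window held 2 adjoining CArG boxes, starting at -82 and -72, and a short CRE on the minus strand. At least 1 CArG box stood in 1.63% of all windows and 2 or more stood in 0.0183%.

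No searched motif was matched in the Dusp6 window, and the Dusp10 window held SP1 boxes only. The RefSeq start used for Dusp10 (184034381) lies inside the counted gene, which begins at 184013302. The sequence before that first position of the gene was not searched. A short CRE, counted with those inside a full CRE, was present in 5 of the 9 windows and in 20.8% of all windows. An SP1 box was present in 8 of the 9 and in 35.7% of all. The 9 windows had a GC content of 57.3% to 78.7%, and the shares over all windows were not matched for GC content. An EGR box, overlapping an SP1 box in both cases, stood in the windows of Dusp2 and Dusp16 and in 5.55% of all. The AP-1 site and the TATA box, at 7.81% and 13.6% of all windows, had no match in the 9. A match describes the letters of a window and was not tested as a binding site.

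**Figure D1:**
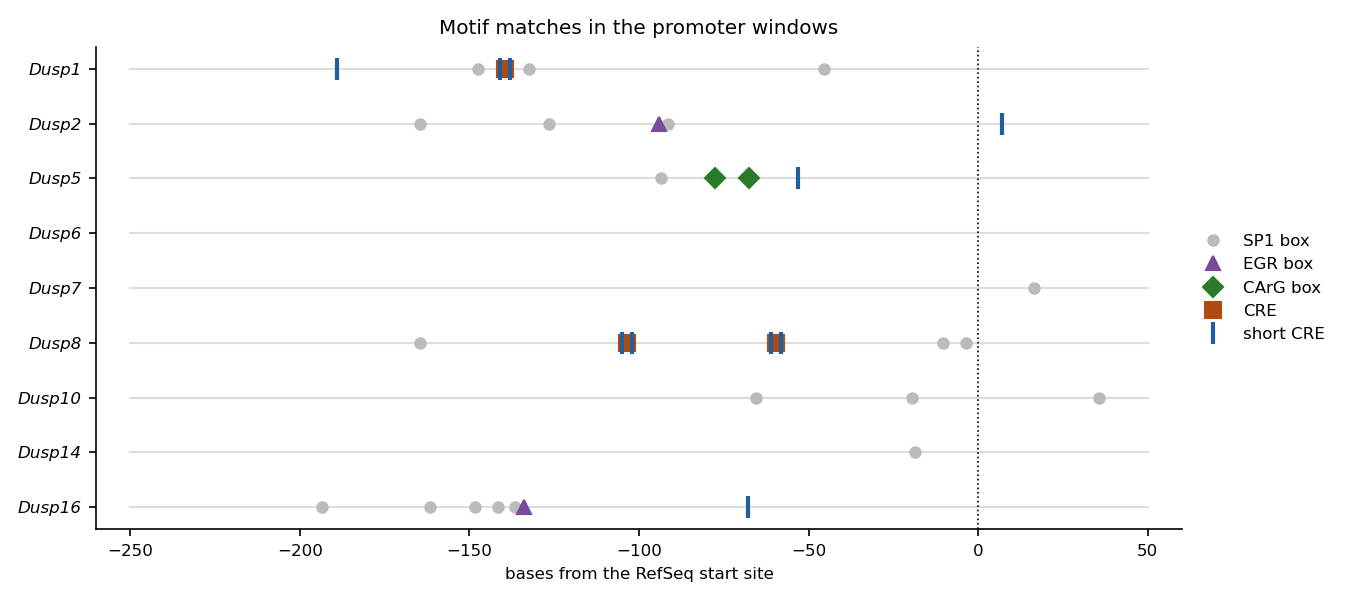
Positions of motif matches (symbols) in the 9 promoter windows, in bases from the RefSeq start site (dotted line), 1 gene per row. A full CRE stands in the windows of Dusp1 and Dusp8 and CArG boxes stand in that of Dusp5, while the Dusp6 window has no symbol.

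In low glucose with vehicle, Dusp4 was the most abundant of the family and Dusp2 the least. Mean levels were 36.8 ± 1.79 FPKM (SD, n = 3) for Dusp4, 19.4 ± 1.02 FPKM for Dusp5 and 14.8 ± 0.310 FPKM for Dusp8, with no overlap of libraries between these neighbours. Dusp7 (10.8 ± 0.963 FPKM) and Dusp1 (10.7 ± 0.832 FPKM) overlapped. Below them stood Dusp10 at 9.34 ± 0.0449 FPKM, Dusp14 at 6.63 ± 0.886 FPKM, Dusp16 at 3.78 ± 0.255 FPKM and Dusp6 at 0.668 ± 0.103 FPKM, again without overlap. The order changed in high glucose: with vehicle, Dusp1 (38.7 ± 2.36 FPKM) overlapped with Dusp5 (40.9 ± 2.65 FPKM), Dusp10 (19.6 ± 1.48 FPKM) overlapped with Dusp8 (17.9 ± 0.913 FPKM), and Dusp6 (3.64 ± 0.535 FPKM) overlapped with Dusp16 (4.07 ± 0.591 FPKM).

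The summed level of the 10 genes went from 107 to 117 FPKM per library in low glucose with vehicle to 212 to 236 FPKM in high glucose with vehicle. Dusp1, Dusp4 and Dusp5, all encoding nuclear enzymes, made up 85.1% of the 112 FPKM gained between the means. The share of Dusp1 in the sum was 9.497% ± 0.335 (SD, n = 3) in low glucose and 17.2% ± 0.208 in high glucose, whereas that of Dusp7 was 9.55% ± 0.484 and 4.33% ± 0.581. With TMAO the sums were 120 to 124 FPKM in low glucose and 219 to 234 FPKM in high glucose.

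**Figure D2:**
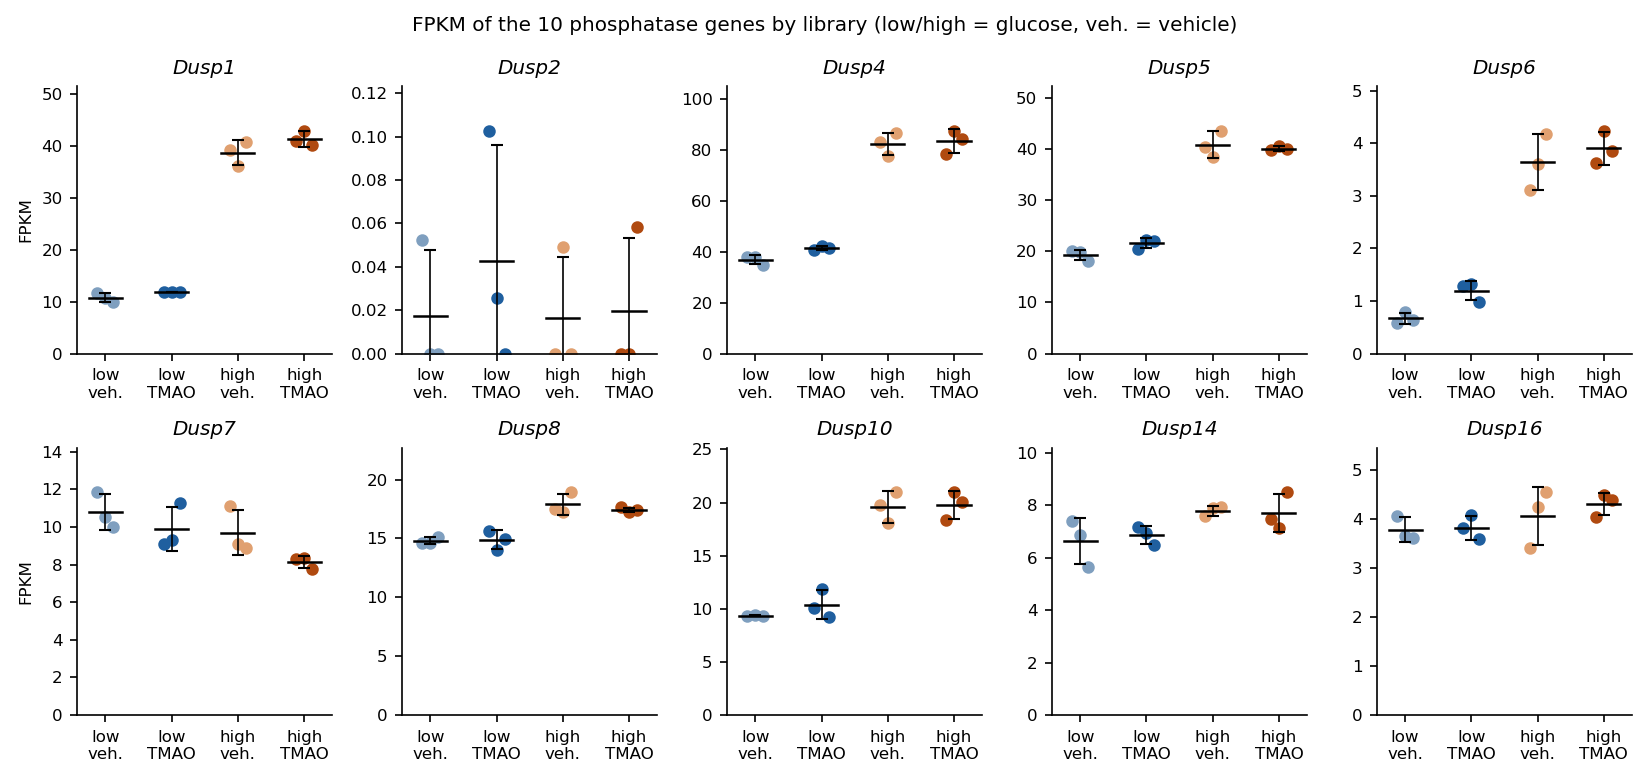
FPKM of each of the 10 genes (vertical axes, each from 0) in the 12 libraries, with points for libraries, bars for the mean and whiskers for the SD of 3 libraries. All 6 high-glucose libraries lie above all 6 low-glucose libraries for Dusp1, Dusp4, Dusp5, Dusp6, Dusp8 and Dusp10, and Dusp2 stays near 0 throughout.

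High glucose was first compared with low glucose within each treatment, to ask which phosphatase genes responded to the sugar. With vehicle, 6 of the 9 tested genes rose and 0 fell, where 1.99% of all tested genes rose and 1.31% fell (edgeR, adjusted p under 0.05). With TMAO, 6 of 9 rose and 0 fell, where 2% of all genes rose and 1.64% fell. These were the same 6 genes. The median log2 fold change over the 9 was 1.07 with vehicle and 0.90 with TMAO, beside 0.00 for all tested genes in both. In the mean over the treatments, 6 rose and 1 fell, beside 4.13% and 4.06% of all genes. For those 6, no high-glucose library overlapped with a low-glucose library, which held in this direction for 2.62% of all tested genes.

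Among the genes for inducible nuclear enzymes, Dusp1 changed most. Dusp1 encodes an enzyme for ERK, JNK and p38 and is a classic immediate-early gene. Its levels in replicates 1 to 3 were 11.6, 10.7 and 9.94 FPKM in low glucose with vehicle, 11.8, 11.9 and 11.8 FPKM in low glucose with TMAO, 39.2, 36.1 and 40.7 FPKM in high glucose with vehicle and 41.0, 42.9 and 40.1 FPKM in high glucose with TMAO. The groups were far apart by glucose and close by treatment. High glucose raised Dusp1 3.61-fold with vehicle (95% interval 3.31 to 3.93, edgeR adjusted p = 2.75e-20) and 3.49-fold with TMAO (3.21 to 3.80, adjusted p = 3.73e-20). By p-value it ranked 4 among the 16222 genes in both comparisons. In the deposited coordinates, Dusp1 is also the shortest gene of those that rose, spanning 2.93 kb.

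Dusp4 encodes a nuclear enzyme for ERK and JNK, and had the largest gain in level. Dusp4 stood at 37.9, 37.8 and 34.7 FPKM in low glucose with vehicle, 40.5, 42.1 and 41.3 FPKM in low glucose with TMAO, 83.1, 77.6 and 86.4 FPKM in high glucose with vehicle and 78.6, 87.6 and 84.4 FPKM in high glucose with TMAO. The difference of the means between high and low glucose was 45.6 FPKM with vehicle and 42.2 FPKM with TMAO. As a ratio, Dusp4 rose 2.24-fold with vehicle (95% interval 2.09 to 2.41, edgeR adjusted p = 6.03e-17) and 2.02-fold with TMAO (1.88 to 2.18, adjusted p = 1.60e-15). It has no window among the promoters above.

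Dusp5 encodes an enzyme that binds and holds ERK in the nucleus, and the CArG boxes shown above lie before its start. Dusp5 levels were 20.04, 19.8 and 18.2 FPKM in low glucose with vehicle, 20.5, 22.2 and 22.1 FPKM in low glucose with TMAO, 40.5, 38.4 and 43.7 FPKM in high glucose with vehicle and 39.8, 40.7 and 40.0 FPKM in high glucose with TMAO. All high-glucose libraries were well above all low-glucose libraries. The rise was 2.11-fold with vehicle (95% interval 1.95 to 2.29, edgeR adjusted p = 3.56e-15) and 1.86-fold with TMAO (1.72 to 2.02, adjusted p = 3.40e-13). GENCODE M21 places an antisense transcript over the Dusp5 start, which was not analysed here. The remaining gene of this class, Dusp2, known mainly from activated lymphocytes, had between 0 and 4 counts in each library, and 3 counts in the smallest library equal 0.0892 FPKM. No difference in Dusp2 was detectable at this depth.

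Of the genes for cytoplasmic ERK phosphatases, Dusp6 passed in both glucose comparisons and Dusp7 in neither. Dusp6, a widely used readout of ERK activity, had few counts, at 35, 47 and 37 in low glucose with vehicle, 78, 81 and 58 in low glucose with TMAO, 183, 231 and 224 in high glucose with vehicle and 191, 298 and 207 in high glucose with TMAO. Its rise was 5.43-fold with vehicle (95% interval 4.34 to 6.79, edgeR adjusted p = 7.64e-13), the largest of the family, and 3.26-fold with TMAO (2.67 to 3.99, adjusted p = 3.29e-10), where its interval overlapped with that of Dusp1. In level it gained only 2.97 and 2.71 FPKM.

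Dusp7, its paralog, was at 11.9, 10.5 and 9.98 FPKM in low glucose with vehicle, 9.12, 9.32 and 11.2 FPKM in low glucose with TMAO, 11.1, 9.12 and 8.90 FPKM in high glucose with vehicle and 8.29, 8.33 and 7.76 FPKM in high glucose with TMAO. The vehicle libraries overlapped between glucose levels, and the TMAO libraries did not, which in this direction was so for 9.43% of all genes. The log2 fold change for high glucose was -0.15 ± 0.09 (SE) with vehicle (edgeR adjusted p = 0.521) and -0.28 ± 0.09 with TMAO (adjusted p = 0.106). The latter passed without the filter on low counts (adjusted p = 0.00569), on the 6 compared libraries alone (0.0479) and without replicate 1 of high glucose with vehicle (0.0360). In the mean over the treatments Dusp7 fell by 0.22 on the log2 scale (edgeR adjusted p = 0.0370). That call was lost in each of 8 fits that left out 1 library, with adjusted p from 0.0609 to 0.113. The 8 libraries were replicates 1 and 2 of low glucose with vehicle, replicate 3 of low glucose with TMAO, replicates 2 and 3 of high glucose with vehicle, and all 3 of high glucose with TMAO. It was also lost with limma on FPKM, where the adjusted p was 0.102 and 0.0977 with pseudocounts of 1 and 0.1.

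Of the genes for JNK and p38 phosphatases, Dusp10 rose clearly and Dusp8 slightly, while Dusp16 did not pass the test. Dusp10 was at 9.29, 9.38 and 9.34 FPKM in low glucose with vehicle, 10.1, 11.9 and 9.22 FPKM in low glucose with TMAO, 19.8, 18.0 and 21.0 FPKM in high glucose with vehicle and 18.4, 21.0 and 20.02 FPKM in high glucose with TMAO. This was a rise of 2.10-fold with vehicle (95% interval 1.88 to 2.34, edgeR adjusted p = 4.62e-11) and 1.91-fold with TMAO (1.71 to 2.12, adjusted p = 6.76e-10). The intervals of Dusp10 overlapped with those of Dusp4 and Dusp5, so these 3 genes are not ordered by fold. The gene 1700056E22Rik lies on the other strand inside Dusp10 and had 61 to 129 counts per library, against a mean of 849 for Dusp10. Since the counting strand was not given in the sources used here, reads of the pair cannot be told apart.

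Dusp8, whose product is best known from brain and heart, was at 14.6, 14.6 and 15.2 FPKM in low glucose with vehicle, 15.7, 14.0 and 14.9 FPKM in low glucose with TMAO, 17.5, 17.2 and 18.9 FPKM in high glucose with vehicle and 17.6, 17.3 and 17.4 FPKM in high glucose with TMAO. The step was small but clear of the spread: 1.21-fold with vehicle (95% interval 1.12 to 1.304, edgeR adjusted p = 0.00124) and 1.17-fold with TMAO (1.09 to 1.26, adjusted p = 0.00820). Without replicate 2 of low glucose with TMAO, the latter adjusted p became 0.0509. The antisense neighbours Gm32786 of Dusp8 and Gm36328 of Dusp16 had at most 5 and 3 counts per library.

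Dusp16 ranged from 3.60 to 4.08 FPKM in the 6 low-glucose libraries, with a median of 3.74, and from 3.41 to 4.56 FPKM in the 6 high-glucose libraries, with a median of 4.33. Its log2 fold change was 0.11 ± 0.08 (SE) with vehicle (edgeR adjusted p = 0.671) and 0.17 ± 0.08 with TMAO (adjusted p = 0.330). Dusp14 ranged from 5.65 to 7.38 FPKM in low glucose (median 6.91) and from 7.11 to 8.50 FPKM in high glucose (median 7.73). Its log2 fold change was 0.24 ± 0.10 with vehicle (edgeR adjusted p = 0.267) and 0.16 ± 0.10 with TMAO (adjusted p = 0.478). Both genes overlapped between glucose levels over the 12 libraries, but the vehicle libraries of Dusp14 did not, at up to 7.38 FPKM in low and at least 7.57 FPKM in high glucose, which in this direction was so for 9.28% of all genes. In the mean over the treatments the adjusted p was 0.0778 for Dusp14 and 0.162 for Dusp16. It was 0.0408 for Dusp14 without replicate 1 of low glucose with vehicle, and 0.0130 for Dusp16 without replicate 1 of high glucose with vehicle.

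**Figure D3:**
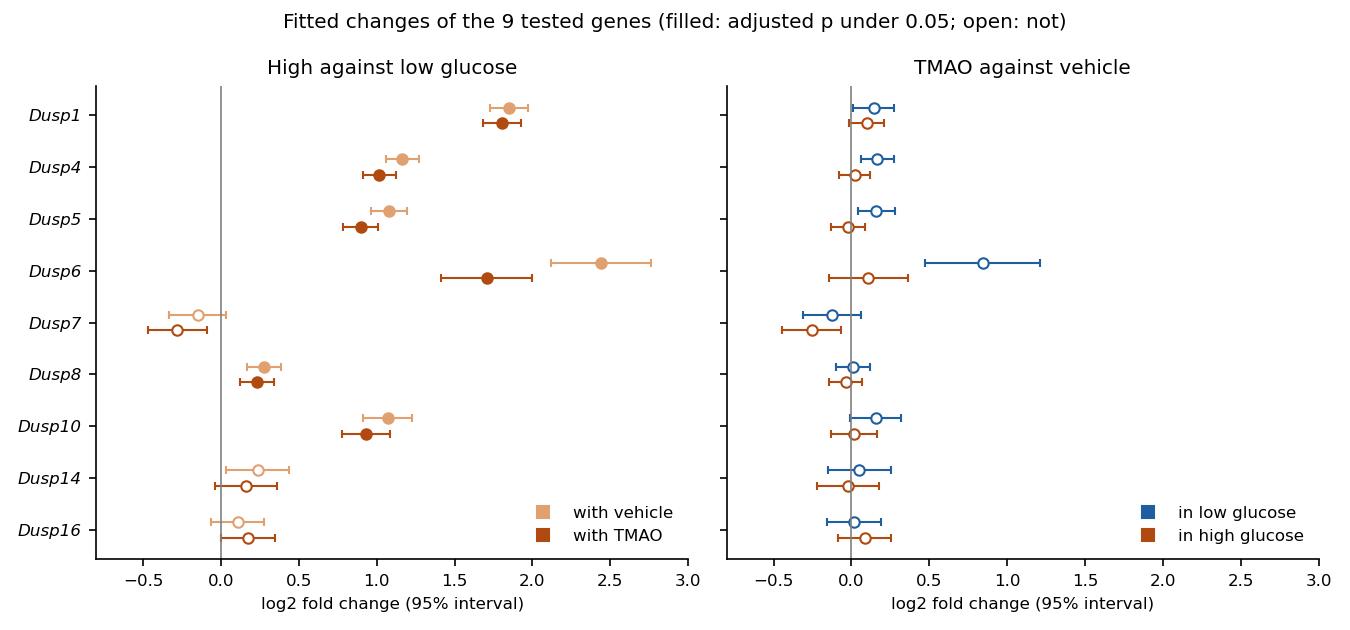
Log2 fold changes (horizontal axes) of the 9 tested genes with 95% intervals, for high against low glucose on the left and TMAO against vehicle on the right, with filled points for adjusted p under 0.05. Filled points appear for 6 genes on the left, from 0.23 for Dusp8 to 2.44 for Dusp6, and nowhere on the right, where Dusp6 in low glucose has the largest value at 0.84.

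TMAO was compared with vehicle at each glucose level, which was the treatment the study was built around. In low glucose 0 of the 9 tested genes passed (edgeR), and neither did any by DESeq2 or limma. All genes together gave 1 call, or 0.00616%. At an unadjusted p under 0.05 there were 4 of the 9, namely Dusp6, Dusp4, Dusp5 and Dusp1, beside 2.2% of all genes. For the same 4, every TMAO library was above every vehicle library, which in this direction was so for 3.18% of all genes. This comparison shares its libraries with the glucose comparisons above, so the values are not independent of them. Both counts and the 4 genes also rest on the same libraries, so they are not separate pieces of evidence. Of the leukocyte list, Ptprc and Adgre1 were at 0 FPKM in every library. Cd68, the remaining gene of that list, was at 2.88 to 3.62 FPKM with vehicle and 3.87 to 4.10 FPKM with TMAO in these libraries. Its part was not tested.

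Dusp6 had the largest of these differences. Its normalised counts, scaled to library size, were 34.7, 46.4 and 37.6 with vehicle and 76.0, 78.4 and 58.7 with TMAO. The fold was 1.79 (95% interval 1.39 to 2.32), with an unadjusted p of 6.14e-05 that ranked 2 of 16222 genes. The edgeR adjusted p was 0.498, and from 0.141 to 1 with 1 library left out. Over the other alternatives it ranged from 0.0172 to 1, and it was under 0.05 only without the filter on low counts. By DESeq2 it was 0.320. On the log2(FPKM + 1) scale the difference was 0.40 instead of 0.84, as that pseudocount understates changes of low genes.

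The other 3 genes differed less. Dusp4 had normalised counts of 1959, 1956 and 1801 with vehicle and 2102, 2176 and 2141 with TMAO, or 1.12-fold (95% interval 1.04 to 1.21, edgeR adjusted p = 0.9998). Dusp5 had 936, 927 and 852 with vehicle and 959, 1036 and 1035 with TMAO, or 1.12-fold (1.03 to 1.21). Dusp1 had 590, 543 and 507 with vehicle and 603, 607 and 602 with TMAO, or 1.10-fold (1.01 to 1.21). Dusp10 was 1.11-fold higher with an interval of 0.994 to 1.25 and overlapping libraries. For Dusp8, Dusp14 and Dusp16 the intervals of the fold reached from 0.899 at the lowest to 1.19 at the highest, and for Dusp7 the interval was 0.807 to 1.04.

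**Figure D4:**
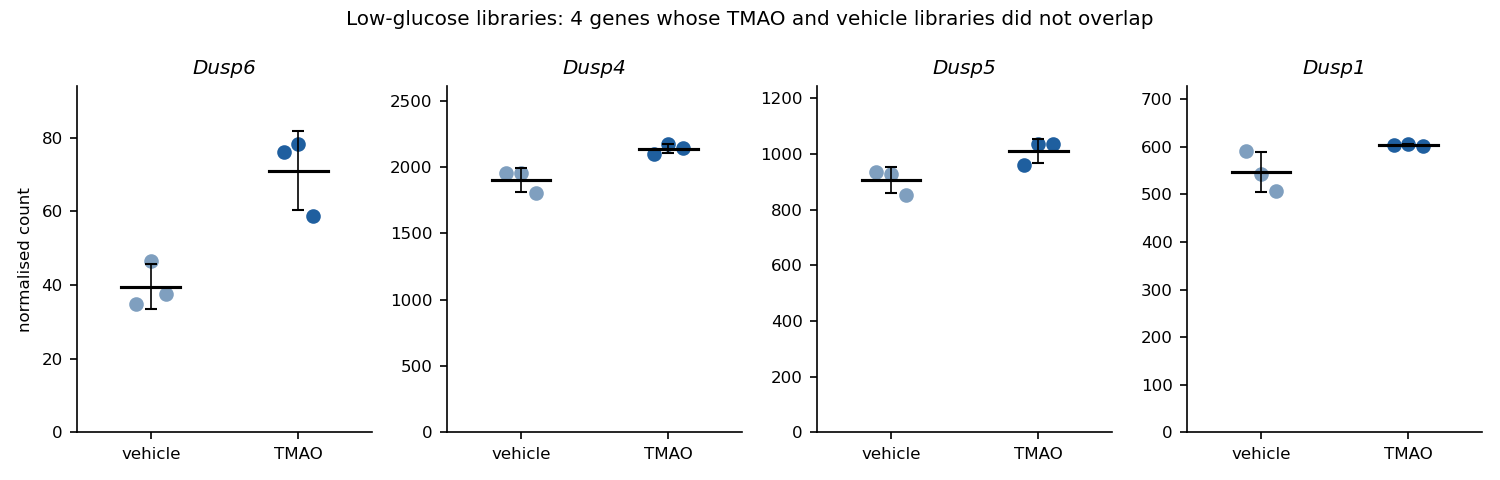
Normalised counts (vertical axes, each from 0) of 4 genes in the 6 low-glucose libraries, with points for libraries, bars for the mean and whiskers for the SD of 3 libraries. The TMAO points lie above the vehicle points in each panel, with the widest gap for Dusp6 (34.7 to 46.4 against 58.7 to 78.4), and none of the 4 differences passed the adjusted test.

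In high glucose 0 of 9 genes passed by edgeR, DESeq2 or limma, as did 0% of all genes by edgeR. Only Dusp7 had an unadjusted p under 0.05, beside 5.35% of all genes. Dusp7 stood at 706, 579 and 565 normalised counts with vehicle and 527, 530 and 492 with TMAO, a log2 difference of -0.26 ± 0.09 (SE, edgeR adjusted p = 0.910). Dusp6 was 1.08-fold higher with an interval of 0.904 to 1.29. For Dusp1, Dusp4 and Dusp5 the intervals of the fold were 0.990 to 1.156, 0.946 to 1.09 and 0.911 to 1.06.

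Over both glucose levels, 0 of 9 passed by edgeR, DESeq2 or limma, beside 0% of all genes by edgeR. Unadjusted, 4 of the 9 were under 0.05 (Dusp6, Dusp7, Dusp1 and Dusp4), beside 3.62% of all genes. Dusp6 was 1.39-fold higher with TMAO (95% interval 1.19 to 1.63, edgeR adjusted p = 0.688). Without the filter on low counts that adjusted p was 0.0389. Dusp7 differed by -0.19 ± 0.06 (SE) on the log2 scale.

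Whether the glucose response itself differed with TMAO was tested as an interaction, and 0 of 9 genes passed by edgeR, DESeq2 or limma, as did 0% of all genes by edgeR. Unadjusted, 3 were under 0.05 (Dusp6, Dusp5 and Dusp4), beside 3.36% of all genes. For Dusp6 the log2 difference was -0.73 (95% interval -1.18 to -0.28, edgeR adjusted p = 0.9998). It was -0.18 (-0.34 to -0.02) for Dusp5 and -0.15 (-0.29 to -0.000625) for Dusp4. Of the 9 genes, only Dusp16 had a positive value, at 0.07 ± 0.12 (SE), and all genes were near evenly split, with 49.6% positive.

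The rest of the pathway was described with 5 lists. Of the 14 MAP kinase genes, all tested, 0 passed in either glucose comparison by edgeR, 0 and 4 being under an unadjusted p of 0.05 with vehicle and with TMAO, beside 13% and 14.7% of all genes. Of the kinases that the phosphatases act on, Mapk3 (ERK1) was at 109 ± 5.12 FPKM (SD, n = 3) in low and 106 ± 4.25 FPKM in high glucose with vehicle. With TMAO its log2 fold change was -0.13 ± 0.05 (SE, edgeR adjusted p = 0.151), and with a replicate block in the fit that adjusted p was 0.0484. Mapk14 (p38α) was at 39.9 ± 1.70 and 38.0 ± 0.226 FPKM, and Mapk8 (JNK1) at 3.89 ± 0.0702 and 4.13 ± 0.272 FPKM. On the same per-length scale, the 10 phosphatase transcripts summed to means of 113 and 225 FPKM in these groups.

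The 29 genes of the upstream cascade and the 11 MAPK-activated kinases also gave 0 calls in either glucose comparison by edgeR, with 2 and 2 of the former and 0 and 2 of the latter under an unadjusted p of 0.05, beside the same 13% and 14.7% of all genes. Hras, a small GTPase of the cascade, differed by -0.16 ± 0.05 (SE) on the log2 scale with TMAO (edgeR adjusted p = 0.132), and by -0.20 (0.0418) without replicate 2 of low glucose with TMAO. Among 19 other dual-specificity and MAPK tyrosine phosphatases, 11 were tested and 1 rose, Dusp3, which encodes a small atypical phosphatase for ERK and JNK, where 1.99% and 2% of all genes rose with vehicle and with TMAO. Dusp3 went from 11.6 ± 0.355 to 13.7 ± 0.205 FPKM with vehicle (1.19-fold, edgeR adjusted p = 0.00539) and 1.15-fold with TMAO (adjusted p = 0.0254). The call with TMAO was lost in 5 fits that left out 1 TMAO library (adjusted p from 0.0663 to 0.124), that is without replicate 2 or 3 of low glucose or without any 1 of high glucose. Without the filter on low counts 2 genes of the list were called with TMAO, the other being Dusp26, named here after its values were seen, which had a mean of 3.25 counts over the 12 libraries and stood at 0 FPKM in high glucose with TMAO. With vehicle, the step of Dusp3 was like that of Dusp8 in size, 1.19-fold against 1.21-fold.

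Of the 22 transcripts known as targets of ERK signalling, 20 were tested. With vehicle 10 rose and 1 fell, and with TMAO 9 rose and 1 fell. Their median log2 fold change was 0.66 and 0.55, beside 0.00 for all tested genes in both, and 1.99% of all genes rose with vehicle and 2% with TMAO. Spry4, an inhibitor of receptor signalling to ERK, rose 9.95-fold and 5.63-fold. Fos rose 6.76-fold and 6.17-fold, Egr1 6.02-fold and 4.25-fold, Fosb 3.81-fold and 3.07-fold, Junb 2.30-fold and 2.10-fold, and Errfi1 2.30-fold and 2.60-fold. Fos, Egr1, Fosb and Junb encode transcription factors of the immediate-early class, and Errfi1 encodes an inhibitor of the EGF receptor. Jun, which encodes a partner of Fos in AP-1 and is named here after its values were seen, was the gene that fell, 1.19-fold with vehicle (edgeR adjusted p = 0.0282) and 1.34-fold with TMAO (6.88e-05). With vehicle that call was lost without replicate 1 or 2 of low glucose or replicate 2 or 3 of high glucose (adjusted p from 0.083 to 0.136) and with limma on FPKM (0.115 and 0.112 with pseudocounts of 1 and 0.1).

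In low glucose, Egr1 was also the 1 gene of all 16222 that TMAO raised past the threshold. Egr1 had 317, 347 and 317 normalised counts with vehicle and 450, 518 and 437 with TMAO, or 1.43-fold (edgeR adjusted p = 0.00207). Without replicate 2 of low glucose with TMAO the adjusted p was 0.0721, and with limma on FPKM it was 0.330 and 0.156 with pseudocounts of 1 and 0.1. The value for Dusp6 was 1.79-fold in the same libraries, from far fewer counts. In high glucose Egr1 differed by 0.02 ± 0.06 (SE) on the log2 scale (edgeR adjusted p = 0.987). Its difference between glucose levels was -0.50 ± 0.10, with an adjusted p of 0.188. None of the other lists gave a call for TMAO.

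**Figure D5:**
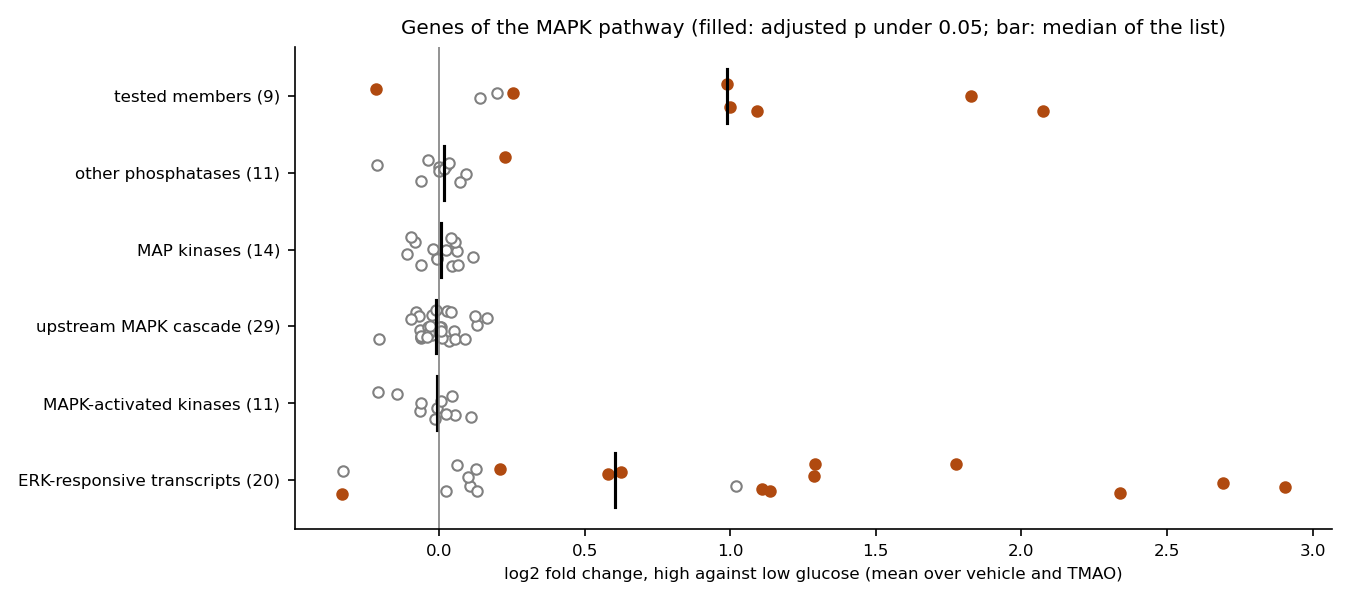
Log2 fold changes for high against low glucose, averaged over vehicle and TMAO (horizontal axis), of every tested gene in the family and 5 pathway lists, with filled points for adjusted p under 0.05 and a bar at each median. The family and the ERK-responsive transcripts have medians of 0.99 and 0.60, and the kinase lists lie around 0 without a filled point.

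Finally, the genes outside the family whose library-scaled log2 counts followed each responding phosphatase most closely over the 12 libraries were listed by Pearson's r. All of these correlations share the glucose contrast between 6 and 6 libraries, so they are descriptions only. Dusp1 was followed most closely by Cebpd (r = 0.998), Sik1 (0.997) and Fosl2 (0.996), and Dusp4 by Zfp703 (0.995), Pde4d (0.994) and Stk35 (0.994). For Dusp5 the genes were Plk3 (0.995), Midn (0.995) and Stk35 (0.995). Dusp10 was followed by Fam46a (0.990), Nr4a1 (0.987) and Tiparp (0.985), and Dusp8 by Maf (0.972), Gadd45a (0.960) and Tbcel (0.959).

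Dusp6 was followed by Fosb (0.991), Egr1 (0.984) and Pde4b (0.983). Within the family, Dusp4 and Dusp5 were the most alike pair (r = 0.997), above the genes named for either. Dusp1 and Dusp4 reached 0.996 and Dusp4 and Dusp10 0.989, with Dusp6 and Dusp8 the least alike of the 6 (r = 0.896).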

How the data were processed

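RNA-seq was made from 12 MIN6 cultures, 3 per condition. The labels name the NEBNext Ultra kit. The submitters' processing notes name HISAT2 2.0.5, featureCounts 1.5.0-p3, DESeq2 1.16.1 and mm10, while the annotation release and strand setting are not given in the sources used here. The authors deposited unnormalized counts per gene, and FPKM values equal to counts divided by gene length and a library total within 1.37% of the summed counts. The glucose concentrations come from the study's supplementary legend.

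Counts were tested in R 4.3.3 with edgeR 4.0.16 (filterByExpr, TMM, robust quasi-likelihood F test) in 1 model of the 4 condition means, with 7 contrasts. Adjusted p-values are Benjamini-Hochberg values over 16222 genes, and calls were made under 0.05. SE is the log2 fold change divided by the square root of F, and intervals cover 95%. The steps were tested on simulated counts. The smallest library had 16793162 counts, of which 3 counts are 1.79e-05%. The intervals cover only the spread between replicates, estimated over all libraries of the model and moderated across genes. The limit for 3 counts covers counting error only. The libraries are labelled biological replicates, and no pair of them agreed within sampling noise.

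The 10 members and the pathway lists were chosen with earlier results of these data known. All members are named, as are up to 6 genes per list with the lowest p that were called in a glucose comparison, any list gene called for TMAO, Mapk3, Mapk8 and Mapk14, and the 3 genes with at least 50 mean counts outside the family most like each responding member. Some genes covered by the rule are not reported here. The test was repeated with DESeq2 size factors, with DESeq2 1.42.0 itself (Wald test), without a filter, with a minimum of 10 counts per library, on the compared libraries alone, with a replicate block, and leaving out libraries singly. FPKM values were tested with limma 3.58.1 after log2 transformation with pseudocounts of 1 and 0.1. Promoters were from RefSeq, exons from GENCODE M21. The Dusp1 coordinates of the table end before those of M21, whose longer Dusp1 model has the shown stretch in an intron.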

Additional observations from a re-analysis of the deposited data

Results flagged for a closer look

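For Dusp5 the TMAO libraries lay all on one side of the vehicle mean in low glucose (above) and all on the other side in high glucose (below), with a log2 difference between the effects of -0.18. The test of that difference gave an adjusted p of 0.9998, and in high glucose the TMAO libraries stayed inside the range of the vehicle libraries.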

How the results depend on the processing

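The 6 glucose calls with vehicle held in all 20 alternatives, and those with TMAO gave 5 to 7 called members with 1 library left out and 6 or 7 otherwise. With the replicate block, 6, 6 and 7 members were called for glucose with vehicle, with TMAO and in the mean, and 0 in the TMAO comparisons and the interaction, as without it. Deviations of same-numbered libraries correlated at -0.038 to 0.213 between conditions, not over 0.1 for every pair, so the numbers were not taken to pair the samples. A library correlated best with its own number in 18 of 36 cases, where 12 would come from 3 equally likely numbers. The block moved the calls over all genes from 323 higher and 213 lower to 412 and 305 for glucose with vehicle and from 325 and 266 to 410 and 373 with TMAO, and it gave 1 MAP kinase call (Mapk3) with TMAO instead of 0. Without the filter on low counts, 1 member (Dusp6) was called for TMAO in low glucose and 1 over both glucose levels, instead of 0, and the cause was not tested. Counts over all genes moved as well: for glucose with TMAO, limma on log2(FPKM + 1) called 231 higher and 116 lower against 325 and 266, and without the filter TMAO called 5 higher and 2 lower genes in low glucose and 5 higher and 8 lower in high glucose. Leaving out 1 library moved some counts over all genes by more than 1.5 times. The genes lower in high glucose with vehicle went from 213 to 140, 119 and 111 without replicate 1 or 2 of low glucose or 3 of high glucose with vehicle. Those with TMAO went from 266 to 134 and 145 without replicate 1 or 3 of low glucose and to 151, 166 and 113 without replicate 1, 2 or 3 of high glucose with TMAO. Genes at an unadjusted p under 0.05 went from 868 to 445 and 1308 for TMAO in high glucose without replicate 1 or 2 of high glucose with vehicle. For TMAO over both levels they went from 588 to 1097 without replicate 3 of low glucose with TMAO. For the interaction they went from 545 to 992 without replicate 2 of that group and 860 without replicate 2 of high glucose with vehicle. With 1 library left out, the calls over all genes in each TMAO comparison and the interaction were between 0 and 2, and none was in a member. The alternatives for single pathway genes were added after the data were seen.

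Fold changes near 0 turned sign when 1 library was left out. On the log2 scale they ranged, for TMAO in low glucose, from -0.0291 to 0.0489 for Dusp8, -0.0511 to 0.1335 for Dusp14 and -0.0294 to 0.0748 for Dusp16. In high glucose they ranged from -0.0216 to 0.0635 for Dusp4, -0.0681 to 0.0252 for Dusp5, -0.0638 to 0.0047 for Dusp8, -0.0412 to 0.0679 for Dusp10, -0.0977 to 0.0367 for Dusp14 and -0.0247 to 0.1698 for Dusp16. Over both levels they ranged from -0.0325 to 0.0065 for Dusp8, -0.0365 to 0.0560 for Dusp14 and -0.0030 to 0.0941 for Dusp16. The interaction ranged from -0.1025 to 0.0073 for Dusp1, -0.1549 to 0.0292 for Dusp14 and -0.0434 to 0.1513 for Dusp16.

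Depth limits Dusp2, with at most 4 counts, and Dusp6 in low glucose, with 35 to 81.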
